A study of Mus musculus with 18 samples.

Results

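The genes described here encode the synaptic vesicle and the presynaptic machinery that releases it. They were chosen by gene symbol alone: the synaptotagmin, syntaxin, syntaxin-binding, SNAP, VAMP, synapsin, SV2, RIM, Munc13, complexin, synaptogyrin and vesicular glutamate transporter families, every symbol that begins with Rab3, and *Syp*, *Sypl*, *Bsn*, *Pclo*, *Nsf*, *Napa*, *Napb*, *Erc1*, *Erc2*, *Doc2a*, *Doc2b*, *Dnm1*, *Amph* and *Bin1*. This rule found 95 of the 12012 genes in the deposited table. No measured value entered the rule, although the set was chosen with earlier results of these data known. The letters Rab3 also match 10 other Rab GTPases (such as *Rab31* and *Rab35*), and the syntaxin, SNAP and VAMP families include 18 genes whose products mainly act on other membranes. These 28 genes stayed in and are described apart from the 67 others.

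A synaptic vesicle is filled with transmitter by a transporter, tethered at the active zone by large scaffolds such as bassoon, piccolo and RIM, and primed by Munc13. Fusion is driven by a complex of 3 SNARE proteins, synaptobrevin on the vesicle and syntaxin 1 and SNAP-25 on the plasma membrane. Complexin holds the primed complex, and synaptotagmin triggers fusion when calcium enters. NSF and its attachment proteins then take the SNARE complex apart, and dynamin and amphiphysin retrieve the membrane by endocytosis. Hippocampal neurons make most of these proteins while axons are still growing, before mature synapses have formed.

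Bulk poly-A RNA sequencing was done on primary hippocampal cultures from E18.5 mice that were *Fibcd1* WT or KO (fibcd1 -/-). FIBCD1 is a membrane receptor that binds glycosaminoglycans. Cultures were plated with or without a coating of chondroitin sulphate proteoglycans (CSPGs), extracellular matrix proteins of the brain that carry sulphated sugar chains. Of the 18 libraries in the series, 8 were analysed here, 4 of WT CSPG and 4 of KO CSPG (replicates A to D of each), and the uncoated WT and KO libraries and WT CSPG E were not analysed here. All 8 cultures had therefore received the coating, so that the comparison asks how *Fibcd1* genotype relates to these transcripts on CSPGs and not how CSPGs act on them. The study's text puts RNA isolation at day 3 in vitro and its appendix at day 2. The study counts the libraries as biological replicates, but the labels do not say which embryo or litter each came from. The KO is constitutive, so glia in the cultures lacked the gene too.

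Values are normalized counts, the reads of a gene scaled by its library's size factor. The libraries held 10099564 to 11174615 reads over the genes of the table in WT CSPG and 10541445 to 11647202 in KO CSPG. *Fibcd1* itself had 52, 65, 62 and 179 reads in WT CSPG A to D and 1, 1, 7 and 5 in KO CSPG A to D, and it fell by 4.48 on the log2 scale (limma, Benjamini-Hochberg adjusted p = 0.00599). The cells are labelled as neurons, and the cultures were mixed, since all 14 neuronal markers searched were in the table but so were 9 of 10 astrocyte and 10 of 10 oligodendrocyte lineage markers, with *Gfap* of astrocytes at a mean of 20571 normalized counts. Summed neuronal markers ranged from 91246 to 97351 in WT CSPG and from 89891 to 92613 in KO CSPG, and 2 of 14, *Neurod2* and *Neurod6*, fell in KO CSPG. Astrocyte markers summed to 39691 to 48540 in WT CSPG and 46171 to 51189 in KO CSPG, with 0 of 9 past the test (limma, with 2 of 9 at an unadjusted p under 0.05). Oligodendrocyte lineage markers summed to 1379 to 1766 and 2035 to 2231, and 2 of 10 (*Olig1* and *Olig2*) rose. Of these 10, 9 had estimates above 0 and 5 an unadjusted p under 0.05 (limma). Summed Y-linked transcripts ranged from 1557 to 1935 in WT CSPG and from 878 to 1092 in KO CSPG, so the proportion of male cells and the genotype cannot be told apart. Microglial markers summed to 2267 to 2749 and 2461 to 2991, with 0 of 8 past the test (limma, 4 of 8 at an unadjusted p under 0.05). All 8 had estimates above 0, with a median log2 difference of 0.13. Over all genes, 2.88% passed the test and 16.2% had an unadjusted p under 0.05 (limma). WT CSPG D stood apart in *Fibcd1* and in *Ttr*, a choroid plexus gene at 331, 953, 11.6 and 3529 normalized counts in WT CSPG A to D. In KO CSPG A to D *Ttr* had 243, 115, 5.11 and 21.8. WT CSPG D was not the only library to stand apart, since WT CSPG C was low in *Ttr* and in *Col3a1* (8.73 against 96.8 to 122). KO CSPG C was the lowest of its group in both genes too (*Col3a1* 23.5 against 72.0 to 158). Members that rest on WT CSPG D are given with and without it. Leaving it out gave the most called genes of any library left out, 576.

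None of the 95 vesicle and release genes differed between KO CSPG and WT CSPG at an adjusted p under 0.05 (limma on log2(value + 1), adjusted over 12012 genes), whereas 346 of all genes, or 2.88%, did. Limma with voom weights on the reads recovered from the values also called 0 of 95. At an unadjusted p under 0.05 there were 16 of 95 (16.8%), 10 with higher and 6 with lower estimates in KO CSPG, against 16.2% of all genes. The libraries of both groups did not overlap for 7 of 95 (7.37%), against 9.22% of all genes. These members thus passed each threshold at a share near or under that of the whole table. Each value is an amount of RNA in a mixed culture, so fewer cells of a type and less RNA per cell cannot be told apart. Leaving out WT CSPG D gave 4 members that passed, *Syngr1*, *Dnm1*, *Sv2b* and *Syt13*, all higher in KO CSPG (4.21%, against 4.80% of all genes in the same fit). Without WT CSPG B, *Syt4* alone passed, lower in KO CSPG (log2 difference −0.11, adjusted p = 0.0488).

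The differences were small as well as uncalled. The median log2 difference, KO CSPG minus WT CSPG, was 0.01 over the 95 members, with quartiles at −0.04 and 0.05, and 0.00 over all genes, with quartiles at −0.06 and 0.06. Estimates lay above 0 for 50 members and below 0 for 45, and they ran from −0.33 for *Rab39* to 0.29 for *Syt13*. The 95% interval of the difference lay within 0.2 log2 units of 0, about a 1.15-fold change, for 67 of 95 members, or 70.5%, against 51.6% of all genes. For 91 of 95 it lay within 0.5 log2 units. The 4 whose intervals reached past 0.5 were *Unc13c*, *Syt2*, *Syt13* and *Rab39*, which averaged between 41.4 and 108 normalized counts. Members together took 1.30% to 1.33% of all normalized counts in WT CSPG and 1.31% to 1.34% in KO CSPG, and these ranges overlap. Replicates were also tight, with a median coefficient of variation over the members of 4.10% (WT CSPG) and 4.04% (KO CSPG), and of 5.50% and 5.33% over all genes. The members had higher counts, with a median mean of 806 normalized counts against 421 over all genes. Interval width and spread depend on counts, so these 2 comparisons do not set the members apart from other genes of like depth, which was not tested.

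**Figure D1:**
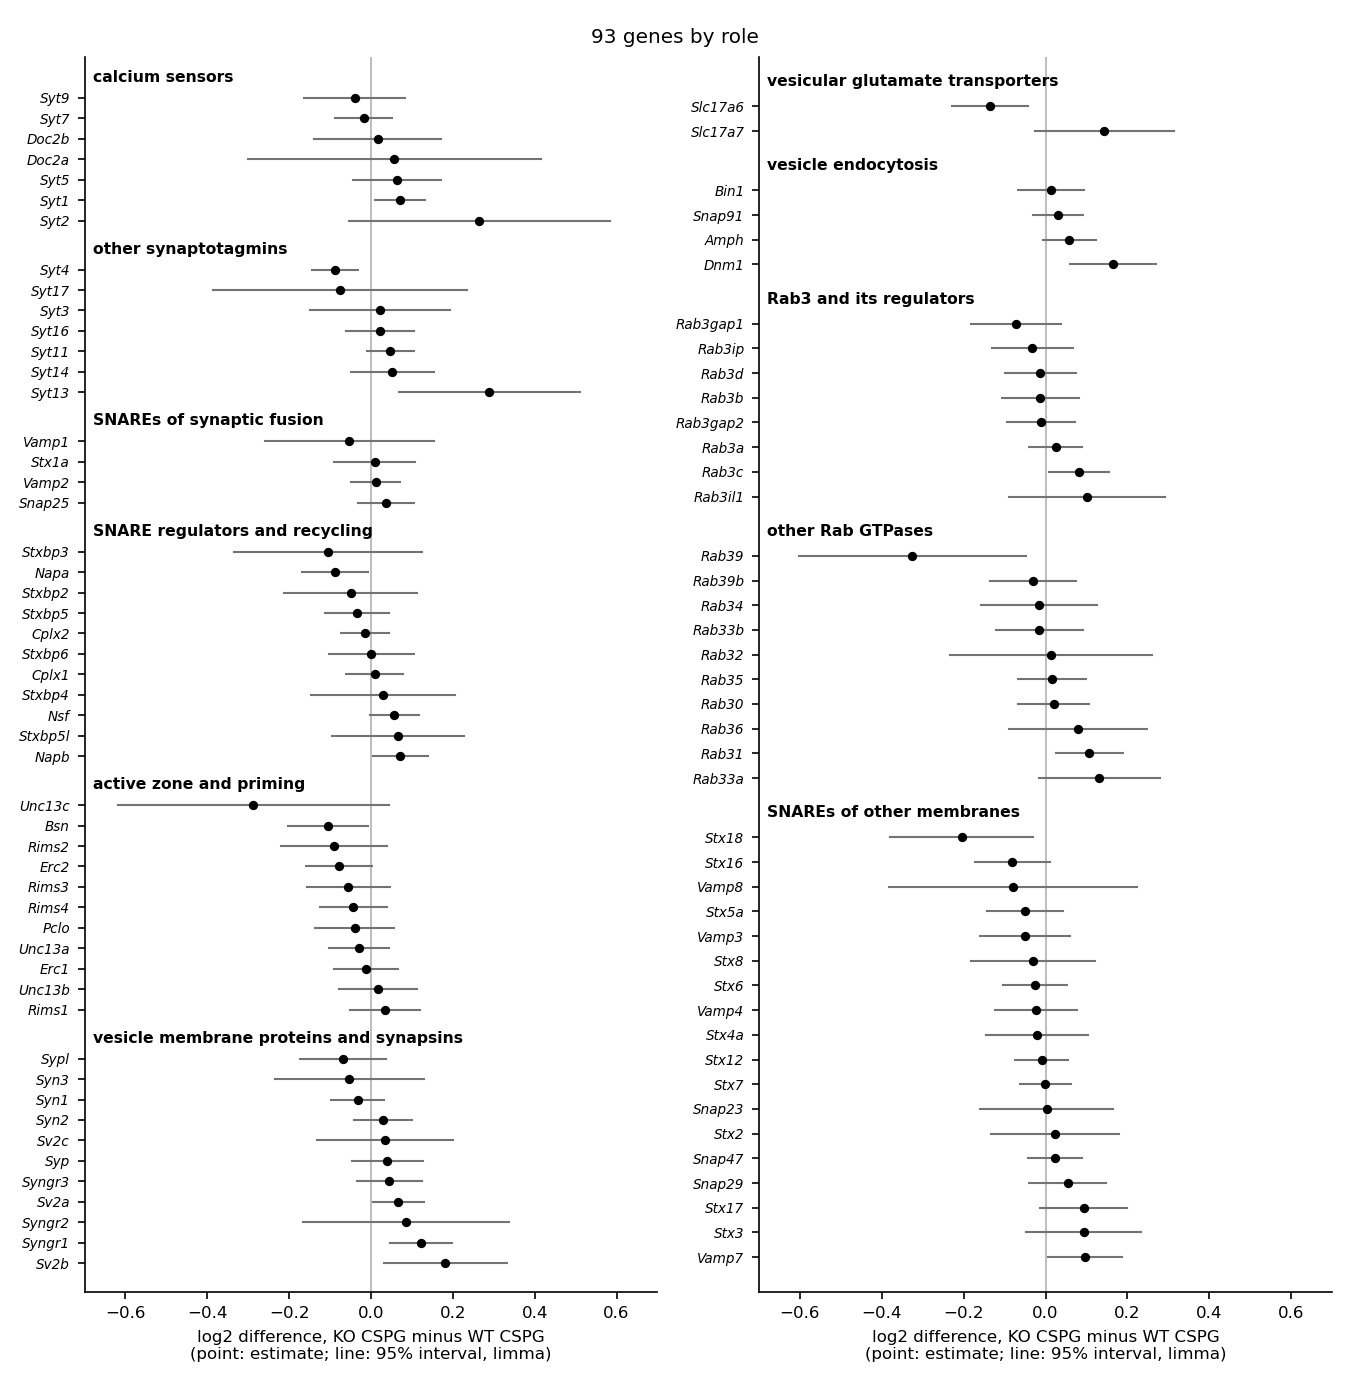
Each of 93 genes is a row, grouped by role, with the log2 difference of KO CSPG minus WT CSPG on the x axis as a point and its 95% interval from limma as a line. The estimates run from −0.33 to 0.29 and none passed the test after adjustment. The interval lies within 0.2 of 0 for 65 of those shown.

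The SNAREs of synaptic fusion were among the most even. *Snap25*, the plasma membrane SNARE that spans the complex, had 3322, 3104, 3090 and 3262 normalized counts in WT CSPG A to D and 3195, 3246, 3442 and 3215 in KO CSPG A to D. The groups overlapped, and the log2 difference was 0.04 (95% interval −0.03 to 0.10). *Vamp2*, synaptobrevin 2 of the vesicle, had 5607, 5501, 5488 and 5534 in WT CSPG and 5597, 5374, 5859 and 5488 in KO CSPG, a difference of 0.01 (−0.05 to 0.07). For *Stx1a*, a syntaxin 1, the values were 1303, 1365, 1277 and 1208 in WT CSPG and 1193, 1248, 1365 and 1387 in KO CSPG, with a wider interval of −0.09 to 0.11. *Vamp1*, synaptobrevin 1, averaged 138 ± 18.1 (SD, n = 4) and 132 ± 7.10 normalized counts. In this group 0 of 5 genes passed the test (limma), 0 of 5 had an unadjusted p under 0.05, and the median log2 difference was 0.01.

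The complexins, which clamp and promote fusion, were as close. *Cplx2*, the complexin with the highest level, had 9988, 9113, 9666 and 9440 normalized counts in WT CSPG and 9199, 9406, 9574 and 9649 in KO CSPG (95% interval of the log2 difference −0.07 to 0.05). *Cplx1* had 2757, 2637, 2712 and 2563 in WT CSPG and 2549, 2704, 2786 and 2696 in KO CSPG (−0.06 to 0.08). Neither complexin showed groups that stood apart. The disassembly factors differed somewhat more. *Nsf*, the ATPase that unwinds spent SNARE complexes, had 2675, 2731, 2761 and 2737 in WT CSPG and 2831, 2843, 2863 and 2809 in KO CSPG, so the groups did not overlap, yet the log2 difference of 0.06 (standard error, SE 0.03) did not pass the test (adjusted p = 0.349). Its adaptors had estimates on opposite sides of 0. *Napa* (alpha-SNAP) had 1441, 1441, 1530 and 1402 in WT CSPG and 1360, 1336, 1450 and 1328 in KO CSPG, which overlap, a difference of −0.09 (SE 0.04, adjusted p = 0.261). *Napb* (beta-SNAP, the brain form) averaged 2653 ± 79.3 and 2788 ± 72.1, a difference of 0.07 (SE 0.03, adjusted p = 0.264). Its groups did not overlap, though WT CSPG D (2713) came close to KO CSPG A (2719). Over the 12 genes of SNARE regulation and recycling 0 passed the test (limma), 2 had an unadjusted p under 0.05 (*Napa* and *Napb*), and the median difference was −0.01. The estimates of *Stxbp2*, *Stxbp3*, *Stxbp4*, *Stxbp5*, *Stxbp5l* and *Stxbp6* lay between −0.10 for *Stxbp3* and 0.07 for *Stxbp5l*.

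Calcium sensors and their relatives had estimates that were mostly above 0. *Syt1*, the main fast calcium sensor of forebrain synapses, had 4995, 4835, 4811 and 5187 normalized counts in WT CSPG and 5097, 5278, 5148 and 5282 in KO CSPG. The groups overlapped through WT CSPG D, and the log2 difference of 0.07 (95% interval 0.01 to 0.13) did not pass the test (adjusted p = 0.228). *Syt7*, a slower sensor of high calcium affinity, averaged 1672 ± 43.4 and 1651 ± 13.6, and *Syt5* 1089 ± 88.3 and 1135 ± 54.0. *Syt2*, the fast sensor typical of hindbrain and some inhibitory synapses, was near the floor of the table, at 48.7 ± 7.88 and 58.6 ± 8.37. *Syt9*, *Doc2a* and *Doc2b* had differences of −0.04, 0.06 and 0.02, and 39.4% of the exon bases of *Doc2a* are shared with a gene on the other strand. Among the 7 sensors 0 passed the test (limma), 1 had an unadjusted p under 0.05 (*Syt1*), and the median difference was 0.06, with 5 above 0 and 2 below.

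Of the synaptotagmins that are not known as fast sensors, *Syt4* had the second smallest p of all members. *Syt4* binds calcium poorly and sits on dense-core and other vesicles. It had 7205, 6813, 7123 and 7161 normalized counts in WT CSPG and 6475, 6649, 6714 and 6775 in KO CSPG. Every KO CSPG library lay below every WT CSPG library, and the log2 difference of −0.09 (SE 0.03, 95% interval −0.15 to −0.03) missed the threshold (adjusted p = 0.0839). Of the exon bases of *Syt4*, 14.5% are shared with a gene on the other strand. The kit named in the labels does not mark strand, so reads from both cannot be told apart there. *Syt11*, also poor at binding calcium, averaged 6610 ± 151 and 6830 ± 185 (difference 0.05). *Syt13* had 86.7, 95.3, 93.1 and 115 in WT CSPG and 122, 124, 122 and 108 in KO CSPG, a difference of 0.29 (SE 0.11, adjusted p = 0.157) at low counts, with an overlap through WT CSPG D and KO CSPG D. Without WT CSPG D it was 0.37 and passed (adjusted p = 0.0494). *Syt3*, *Syt14*, *Syt16* and *Syt17* lay between −0.08 and 0.05. In this group of 7, 0 passed the test with all libraries (limma), 2 had an unadjusted p under 0.05 (*Syt4* and *Syt13*), and the median was 0.02.

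**Figure D2:**
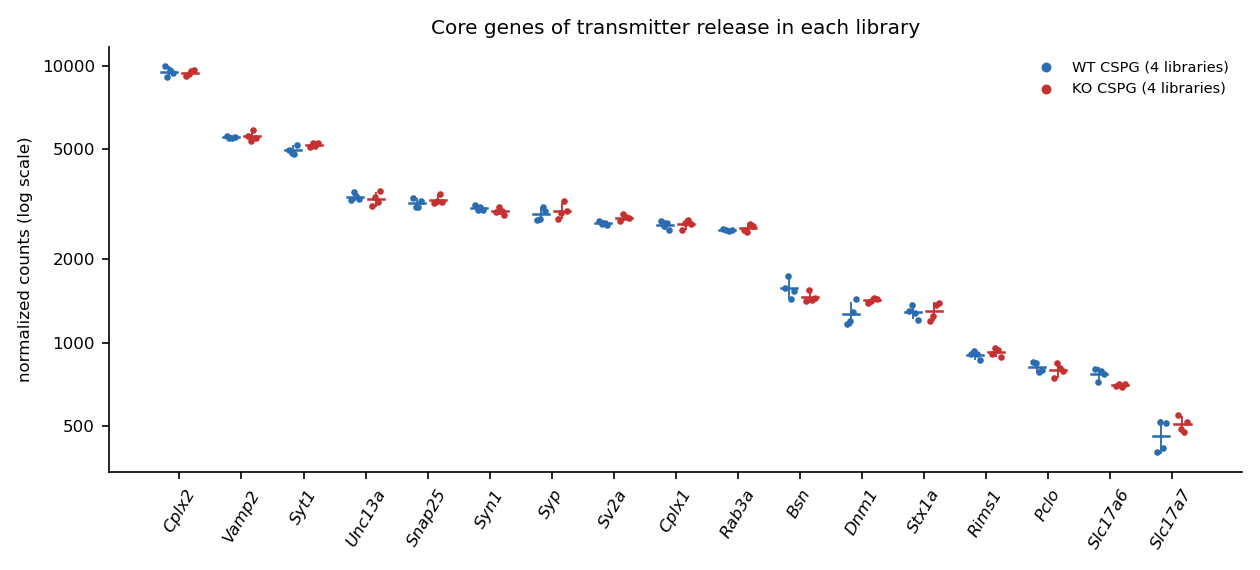
Normalized counts (log scale) of 17 core genes of transmitter release in the 4 WT CSPG (blue) and 4 KO CSPG (red) libraries, ordered by mean, with each library as a point, the group mean as a horizontal bar and the SD as a vertical line. Groups overlap for every gene shown except *Slc17a6*, and for *Dnm1* 1 WT CSPG library lies among the KO CSPG libraries.

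Active zone and priming genes were the one role group in which nearly all estimates lay below 0, 9 of 11 with a median log2 difference of −0.04, although none passed the test (limma, 0 of 11) and 1 had an unadjusted p under 0.05. That gene was *Bsn* (bassoon), with 1569, 1741, 1443 and 1542 normalized counts in WT CSPG and 1416, 1545, 1425 and 1454 in KO CSPG. Its groups overlapped, and the difference was −0.11 (SE 0.05, 95% interval −0.20 to −0.01, adjusted p = 0.262). *Pclo*, piccolo, the related giant scaffold, had 850, 842, 783 and 795 against 742, 845, 808 and 787 (−0.14 to 0.06). *Unc13a* (Munc13-1), which primes vesicles, had 3279, 3508, 3388 and 3315 in WT CSPG and 3119, 3359, 3226 and 3529 in KO CSPG (−0.10 to 0.04). *Rims1*, which links vesicle Rab3 to Munc13 and calcium channels, had 907, 929, 906 and 865 against 912, 952, 938 and 889, and with *Unc13b* was one of the 2 with an estimate above 0 (−0.05 to 0.12). *Erc2* (an ELKS scaffold) averaged 3108 ± 145 and 2943 ± 159, a difference of −0.08 (adjusted p = 0.321). *Unc13c*, the rarest member of all, had 46.0, 52.0, 42.7 and 41.8 in WT CSPG and 31.0, 37.3, 40.9 and 39.8 in KO CSPG, and did not overlap, with a difference of −0.29 (SE 0.16, adjusted p = 0.397). *Rims2*, *Rims3*, *Rims4* and *Erc1* lay between −0.09 and −0.01. These genes are long, with a median length of 9700 bases in the table against 4486 over all genes. With a trend on length taken out of every library, the difference was −0.09 for *Bsn*, −0.02 for *Pclo* and −0.01 for *Unc13a*. The part of length in the estimates of the whole group was not tested. Of all 12012 genes, 5994 had estimates below 0.

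For proteins of the vesicle membrane and the synapsins, 8 of 11 estimates lay above 0 with a median of 0.04, again with 0 of 11 past the test (limma) and 3 at an unadjusted p under 0.05. *Syngr1*, synaptogyrin 1, a tetraspan protein of the vesicle, had the smallest p of all 95 members. It lies on chromosome 15 (mm10, 80091334 to 80119501, plus strand) and had 1539, 1507, 1494 and 1641 normalized counts in WT CSPG and 1645, 1679, 1716 and 1684 in KO CSPG. The groups did not overlap, though WT CSPG D came within a few counts of KO CSPG A, and the log2 difference was 0.12 (SE 0.04, 95% interval 0.05 to 0.20, adjusted p = 0.0711). The call depended on the processing: *Syngr1* passed with upper-quartile scaling (adjusted p = 0.0435), with the length trend removed (0.0459) and without WT CSPG D (0.0164). *Sv2a*, the most abundant SV2 glycoprotein, had 2756, 2677, 2716 and 2663 in WT CSPG and 2748, 2910, 2837 and 2834 in KO CSPG, a difference of 0.07 (0.00 to 0.13, adjusted p = 0.273). Its relative *Sv2b* had 368, 350, 385 and 474 against 440, 435, 452 and 449. There WT CSPG D exceeded all KO CSPG libraries, and the difference of 0.18 (SE 0.07, adjusted p = 0.201) became 0.27 without that library (adjusted p = 0.00659).

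*Syp* (synaptophysin), the most used marker of synaptic vesicles, had 2787, 2789, 3082 and 2997 normalized counts in WT CSPG and 2811, 2953, 3245 and 2981 in KO CSPG, a log2 difference of 0.04 (95% interval −0.05 to 0.13). Of its exon bases, 16.8% are shared with a gene on the other strand. *Syn1*, synapsin 1, which tethers vesicles in the reserve pool, had 3141, 3006, 3081 and 3018 against 2973, 3102, 3004 and 2894 (−0.10 to 0.03). Both genes are X-linked, as are *Rab33a* and *Rab39b*, and the sex makeup of the cultures moved with genotype. Neither passed the test or stood apart between groups. *Syngr3* averaged 1343 ± 43.0 and 1386 ± 47.1, and *Syn2* 2630 ± 104 and 2684 ± 90.0. *Syn3*, *Sv2c*, *Syngr2* and the widely expressed *Sypl* lay between −0.07 and 0.09.

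The vesicular glutamate transporters had estimates on opposite sides of 0. *Slc17a6* (VGLUT2), which loads glutamate in early and subcortical neurons, lies on chromosome 7 (mm10, 51622006 to 51671119, plus strand). It had 801, 717, 786 and 772 normalized counts in WT CSPG and 694, 710, 688 and 706 in KO CSPG. All KO CSPG libraries were below all WT CSPG libraries, with WT CSPG B only just above them, and the log2 difference of −0.14 (SE 0.05, 95% interval −0.23 to −0.04) did not pass the test (adjusted p = 0.111). *Slc17a7* (VGLUT1), the form of mature cortical and hippocampal excitatory neurons, had 400, 515, 414 and 513 in WT CSPG and 546, 488, 476 and 515 in KO CSPG. WT CSPG fell into a higher and a lower pair, the groups overlapped, and the difference was 0.14 (SE 0.08, −0.03 to 0.31, adjusted p = 0.407). Per length, VGLUT1 made up 37.4% ± 4.13 (SD, n = 4) of both transporters in WT CSPG, from 33.3% to 41.9%, and 42.0% ± 1.51 in KO CSPG, from 40.8% to 44.1%, which overlap.

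Genes of vesicle endocytosis all had estimates above 0, and 1 of 4, *Dnm1*, had an unadjusted p under 0.05, with 0 of 4 past the test (limma). *Dnm1*, dynamin 1, the neuronal GTPase that severs endocytic vesicles, lies on chromosome 2 (mm10, 32308471 to 32353338, minus strand). It had 1166, 1201, 1292 and 1433 normalized counts in WT CSPG and 1395, 1413, 1452 and 1433 in KO CSPG. WT CSPG A to C lay below every KO CSPG library and WT CSPG D lay among them. The log2 difference was 0.17 (SE 0.05, 95% interval 0.06 to 0.27, adjusted p = 0.0853) with all libraries and 0.22 without WT CSPG D (adjusted p = 0.00147). *Dnm1* lies 462 kb from *Fibcd1*, and whether the stretch of chromosome 2 around the targeted gene differed in other ways between KO and WT cannot be told apart from the loss of FIBCD1 here. *Amph* (amphiphysin) averaged 2741 ± 44.5 and 2854 ± 91.0 (difference 0.06, adjusted p = 0.379). *Snap91* (AP180), a clathrin adaptor that the SNAP symbol rule picked up, ranged from 4311 to 4622 and from 4437 to 4562. *Bin1*, amphiphysin 2, averaged 1556 ± 74.6 and 1570 ± 46.7.

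**Figure D3:**
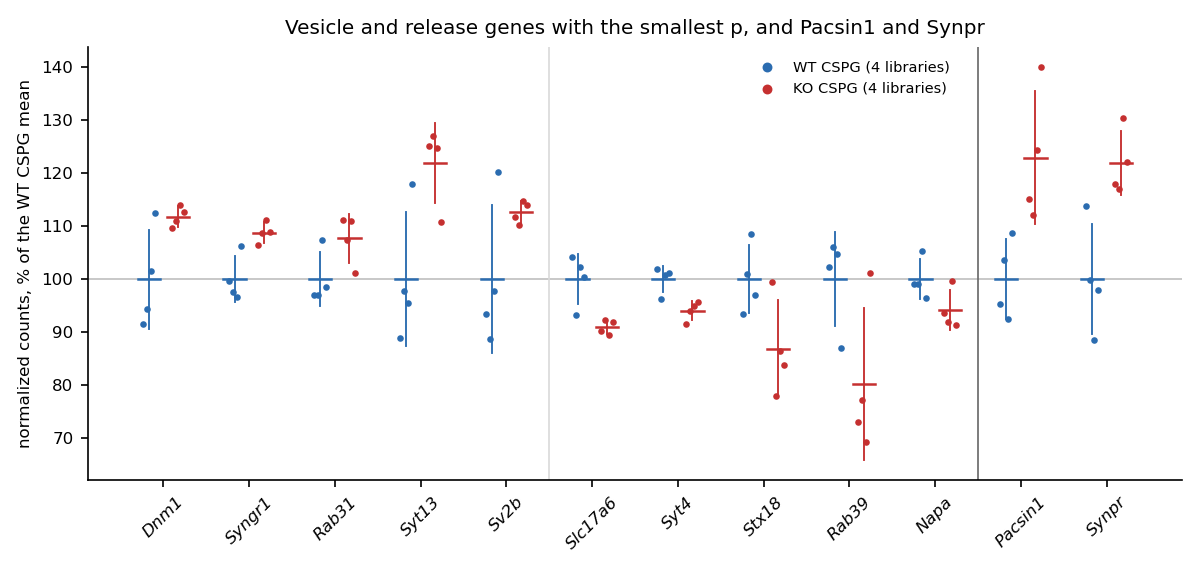
Normalized counts as a percentage of the WT CSPG mean in each library for the 5 vesicle and release genes with the smallest p among those with higher estimates in KO CSPG (left) and lower (middle), and for *Pacsin1* and *Synpr* (right), which passed the test. Points are libraries, bars the mean and lines the SD. For *Dnm1*, *Syngr1*, *Syt13* and *Sv2b* the highest WT CSPG point is library D.

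Of the genes of Rab3, the GTPase that marks vesicles for docking, *Rab3a* was even between genotypes and *Rab3c* had a higher estimate in KO CSPG. *Rab3a* had 2571, 2551, 2529 and 2559 normalized counts in WT CSPG and 2548, 2518, 2691 and 2633 in KO CSPG, a log2 difference of 0.02 (95% interval −0.04 to 0.09). *Rab3c* averaged 6289 ± 317 and 6656 ± 280, a difference of 0.08 (SE 0.04, adjusted p = 0.238), and was the 1 of 8 genes of this group with an unadjusted p under 0.05. *Rab3b*, *Rab3d* and the associated *Rab3il1*, *Rab3ip*, *Rab3gap1* and *Rab3gap2* lay between −0.07 and 0.10, with 0 of 8 past the test (limma).

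Among the genes that the symbols brought in from other pathways, none passed the test either (limma, 0 of 28, with 4 at an unadjusted p under 0.05). *Rab31*, of endosomal and Golgi transport, had 1724, 1726, 1912 and 1753 normalized counts in WT CSPG and 1977, 1911, 1973 and 1800 in KO CSPG (log2 difference 0.11, SE 0.04, adjusted p = 0.151). *Rab39* was at low counts, 81.5, 84.5, 83.4 and 69.3 in WT CSPG and 58.2, 61.5, 55.2 and 80.6 in KO CSPG. Its groups overlapped through KO CSPG D (−0.33, SE 0.14, adjusted p = 0.219). *Stx18*, of the endoplasmic reticulum, had 191, 207, 222 and 199 against 204, 159, 177 and 172 (−0.21, SE 0.09, adjusted p = 0.218), with 32.3% of its exon bases shared with genes on the other strand. *Vamp7*, of late endosomes and neurite growth, had 741, 729, 689 and 692 against 759, 781, 753 and 751 and did not overlap (0.10, adjusted p = 0.277). *Vamp7* is placed on a scaffold outside the named chromosomes, so removal of X and Y left it in, and the part of sex makeup in its values was not tested. The other 16 SNAREs of this kind, such as *Stx7*, *Stx12*, *Snap23*, *Snap29*, *Vamp3* and *Vamp4*, lay between −0.08 and 0.09, and the other Rab GTPases (*Rab30*, *Rab32*, *Rab33a*, *Rab33b*, *Rab34*, *Rab35*, *Rab36* and *Rab39b*) between −0.03 and 0.13.

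Levels differed far more between members than between genotypes. Divided by the gene length in the table, which came within 10% of the summed exons in GENCODE M21 for 85 of the 94 members found there, the mean over 8 libraries ran from 4.71 normalized counts per kilobase for *Unc13c* to 1929 for *Cplx2*. Next among those named here came *Syt4* (1760), *Vamp2* (1459), *Syt11* (1291), *Cplx1* (1222) and *Rab3a* (1157). The library ranges of *Syt11* and *Cplx1* overlap. *Stx7*, at 1243, is left out of this order, because its length in the table was 2500 bases and its summed exons 4473. The lowest after *Unc13c* were *Syt2* (7.02), *Syt17* (10.1), *Vamp1* (13.3) and *Doc2a* (16.4).

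Within each family of related genes, the form with the highest mean share was the same in both genotypes except for the NSF attachment proteins. Per kilobase, *Vamp2* made up 99.1% of synaptobrevin 1 and 2 in either genotype. *Unc13a* held 87.3% ± 0.18 (SD, n = 4, WT CSPG first) and 87.2% ± 0.50 of the Munc13 genes, and *Sv2a* 89.4% ± 1.16 and 89.0% ± 0.06 of SV2. Synapsin 1 took 70.1% (69.4% to 70.6%) and 69.3% (67.9% to 70.8%) of the synapsins, with *Syn3* at 1.62% and 1.58%. Complexin was shared between *Cplx2*, at 61.4% ± 0.64 and 61.0% ± 0.55, and *Cplx1*. Among the Rab3 genes *Rab3a* held 50.3% ± 0.89 and 49.9% ± 1.14, and *Rab3c* 32.4% ± 1.07 and 33.5% ± 1.30. The RIM genes were led by the short forms *Rims4*, at 36.1% (34.8% to 37.4%) and 35.9% (35.4% to 36.2%), and *Rims3*, at 28.8% ± 0.94 and 28.5% ± 1.64, which lack most domains of *Rims1* (22.8% ± 0.79 and 23.8% ± 1.04), with *Rims2* at 12.3% and 11.8%. The lengths given in the table for *Rims2* (5046 bases) and *Rab3c* (8500) were well under their summed exons (10389 and 12049), so the shares in the RIM and Rab3 families would move with another length.

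The NSF attachment proteins were the family whose shares did not overlap between groups. *Napb* took 49.5% ± 1.66 in WT CSPG, from 47.1% to 51.0%, and 52.3% ± 0.60 in KO CSPG, from 51.7% to 52.8%. This family was picked from the families compared after its values were seen, so it is given as a description with no test.

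**Figure D4:**
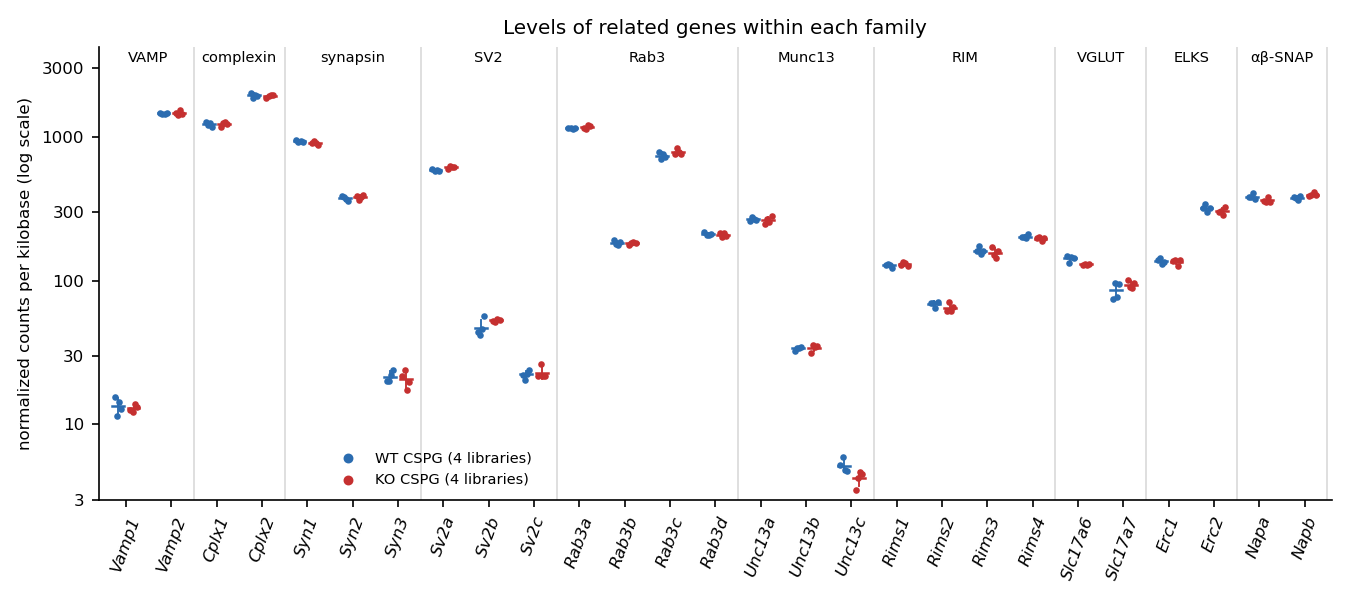
Normalized counts per kilobase of gene length (log scale) for 10 families of related genes, with 4 WT CSPG (blue) and 4 KO CSPG (red) libraries as points, means as bars and SDs as lines. Related genes differ by up to about 2 orders of magnitude (*Vamp2* against *Vamp1*), while both genotypes lie side by side.

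Genes of the same pathway outside the symbol rule were read from a list of 89, of which 79 were in the table. Of these 79, 2 passed the test, both higher in KO CSPG, or 2.53% against 2.88% of all genes, and their median log2 difference was 0.01. *Pacsin1* (syndapin 1), a membrane-bending partner of dynamin in vesicle retrieval, lies on chromosome 17 (mm10, 27655509 to 27711106, plus strand). It had 325, 353, 315 and 371 normalized counts in WT CSPG and 393, 382, 424 and 478 in KO CSPG. The groups did not overlap, and it rose by 0.29 on the log2 scale (SE 0.07, 95% interval 0.15 to 0.44, adjusted p = 0.0201). *Synpr* (synaptoporin), a synaptophysin relative found in mossy fibre and inhibitory terminals, lies on chromosome 14 (mm10, 13284780 to 13615459, plus strand). It had 432, 379, 336 and 372 in WT CSPG and 448, 444, 495 and 464 in KO CSPG, without overlap, and rose by 0.29 (SE 0.07, 95% interval 0.15 to 0.43, adjusted p = 0.0132). Both calls were lost without a trend in the prior variance (adjusted p = 0.159 for *Pacsin1* and 0.148 for *Synpr*), without WT CSPG C (0.0795 and 0.0685) and without KO CSPG C (0.0691 and 0.0688). *Pacsin1* was also lost without WT CSPG A (0.0732) or KO CSPG D (0.0867). With the Y-linked level as a covariate the adjusted p-values were 0.815 and 0.685. Genotype explained 91.2% of that level and the fit called 2 of 12012 genes, so it cannot test these calls apart from genotype.

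By function, 1 of 26 genes of clathrin and vesicle retrieval passed the test (*Pacsin1*), 1 of 11 other vesicle and terminal proteins (*Synpr*), and 0 of 19 for vesicle acidification and loading and 0 of 23 for presynaptic scaffolds and calcium channels (limma). At an unadjusted p under 0.05 these groups had 5 of 26, 5 of 11, 3 of 19 and 3 of 23 genes, together 16 of 79, or 20.3%, against 16.2% of all genes. The closest of the uncalled genes were *Cacna2d2*, a calcium channel subunit, at 161 ± 32.6 and 205 ± 8.33 (log2 difference 0.37, adjusted p = 0.0723), and *Rimbp2*, which ties RIM to calcium channels, at 344 ± 18.5 and 398 ± 30.5 (0.21, adjusted p = 0.0757). *Slc32a1* (VGAT), the vesicular transporter of GABA and glycine, had 281, 246, 243 and 293 normalized counts in WT CSPG and 285, 322, 345 and 305 in KO CSPG (0.24, adjusted p = 0.0849). The groups overlapped, and 24.9% of its exon bases are shared with a gene on the other strand. Without WT CSPG D, all 3 passed, *Cacna2d2* at 0.49 (adjusted p = 0.00161), *Rimbp2* at 0.24 (0.0311) and *Slc32a1* at 0.29 (0.0272), as did *Apba1*, *Basp1* and *Sncb*. With *Pacsin1* and *Synpr* they were all the calls among the 79 in that fit, a larger share than the 4.80% of all genes called there. *Slc32a1* also stands in a list of 10 markers of GABAergic neurons, of which 0 passed the test (limma, 2 at an unadjusted p under 0.05) and whose sums ranged from 7011 to 8291 in WT CSPG and from 7618 to 8808 in KO CSPG. *Svop*, an SV2 relative, averaged 996 ± 28.2 and 1083 ± 4.45 and did not overlap (0.12, adjusted p = 0.0896). *Ap2b1*, a subunit of the clathrin adaptor, averaged 8102 ± 153 and 7671 ± 116 and did not overlap either (−0.08, adjusted p = 0.105). The part of the glial and GABAergic marker levels in these differences was not tested.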

How the data were processed

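Poly-A RNA of hippocampal cultures was sequenced by the study as 50 bp single reads and aligned at a sequencing facility; the aligner and the counting program are not given in the sources used here. The submitters' processing notes list DESeq2 and mm10. The authors deposited 1 table for the series with a signal for each gene in 8 libraries, its reads scaled by 1 size factor for the library. Values were whole multiples of 1 step in 100% of cases (largest deviation 5.46e-11 of a read), which gave the reads per library. No gene has a mean under 40.7, so lower genes are not covered. The table also holds the authors' own fold changes, test statistics and p-values for KO CSPG against WT CSPG, which were not used.

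The members, gene lists and tests were chosen with earlier results of these data known. The test was limma 3.58.1 in R 4.3.3 on log2(value + 1) (trend and robust prior variances, Benjamini-Hochberg adjustment over 12012 genes), tested on simulated data. A gene was called at an adjusted p under 0.05. Values in every library are given for 17 core members, for the 5 members with the smallest p in each direction and for called genes of the other presynaptic list. A few members counted in the totals are not reported here by name. Other genes are named as examples, chosen after their values were seen. Starts are counted from 1. P-values measure the spread between these libraries. Exon overlap was taken from GENCODE M21. Of the 94 members found there, 10 had over 10% of their exon bases shared with another gene, and not all of these are marked above.

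Of 18 libraries in the series, 10 were not analysed here. Alternatives were another pseudocount (0.1 or 10), a mean of at least 100, upper-quartile scaling, other prior variances, a replicate block, a Y-linked covariate, removal of the X and Y chromosomes and pseudogenes, removal of the trend with length and leaving out each library. A voom fit on the recovered reads was added after the data were seen. Count models had been planned as alternatives but were not run, because a check of the units did not accept the recovered reads as counts. The deposited values are normalized and lower genes are missing. Pairs of libraries of 1 group differed by a chi-square per degree of freedom of 1.83 to 2.90, so none was a copy. Sequences of these genes were not used, since the data bear on transcript amounts and not on a sequence.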

Additional observations from a re-analysis of the deposited data

Results flagged for a closer look

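In groups of 4 libraries of the 35 genes named by rule (70 groups), 1 library stood far from the other 3 in 3 cases, where chance flags about 1 in 20, or 3.5. For *Rab31*, WT CSPG C had 1912 normalized counts against 1724 to 1753 in the other WT CSPG libraries. For *Syt13*, KO CSPG D had 108 against 122 to 124 in the other KO CSPG libraries. For *Atp6v1g2*, a subunit of the pump that acidifies vesicles, KO CSPG B had 651 against 741 to 750. The number of such libraries was near what chance gives, and no cause was tested.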

How the results depend on the processing

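The count of called vesicle and release genes, 0 of 95, stayed at 0 with other pseudocounts, a mean of at least 100, other prior variances, the Y-linked covariate, voom, and the X and Y chromosomes removed. It was 1, higher in KO CSPG, with upper-quartile scaling (*Syngr1*), with the length trend removed (*Syngr1*) and with the replicate block (*Dnm1*, adjusted p = 0.0268). Leaving out 1 library gave 0 to 4 called, 0 to 4 higher and 0 to 1 lower. Called genes of the other presynaptic list went from 2 to 0 without the prior trend and to 0 with the Y-linked covariate, and ranged from 0 to 8 when 1 library was left out. The 8 of 79 came without WT CSPG D, a larger share than the 4.80% of all genes called in that fit. All genes called went from 346 to 80 without the prior trend, to 2 with the Y-linked covariate, which genotype explains to 91.2%, and to between 186 (without KO CSPG A) and 576 (without WT CSPG D). Upper-quartile scaling moved the share of calls that were higher from 37.9% to 50.6%, and its median over all genes was 0.01. The labels do not say whether replicate letters pair the libraries, and the values did not settle it. Correlations of same-letter deviations were −0.07, 0.10, 0.27 and −0.01 for A to D. Those of unlike letters ran from −0.20 to 0.11, and only the value of C lay above this range. The C libraries were also both low in *Col1a1*, a marker of fibroblasts and meninges. WT CSPG C had 25.2 normalized counts against 124 to 147 in the rest of its group. KO CSPG C had 35.8 against 124 to 320. Replicate C was lowest within each genotype for all markers of that list in the table except *Fn1*. Whether the C libraries were prepared together was not tested. The block gave 429 called genes, and the main fit takes no account of such pairing. No call reversed. Of 662 pairs of a named gene and an alternative, 18 changed sign, none where either fit called the gene. The causes were not tested. For *Unc13c*, *Syt2*, *Syt13* and *Rab39* the spread and depth did not exclude a change of 0.5 log2 units, and genes without a row were not assessed.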
